A study of Mus musculus with 32 samples.

Results

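Neuronal and synaptic transcripts were followed through sorted myeloid cells of the mouse brain. A list of 37 gene symbols was matched to the rows of the deposited expression table. Of the 37 genes, 25 were present among the 17586 rows and 12 were not analysed here (Syn1, Cplx1, Slc17a7, Dlg4, Nrgn, Vsnl1, Nefl, Tubb3, Map2, Gap43, Thy1 and Uchl1). The 25 comprised 6 of 8 listed genes of the synaptic vesicle and its release, 2 of 3 of transmitter synthesis and loading, all 6 transmitter receptor subunits, 6 of 9 genes of the postsynaptic scaffold, its kinases and synaptic adhesion, 3 of 7 cytoskeletal and growth genes, and 2 of 4 others.

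Each of the 4 populations had 8 libraries. Differentiated and undifferentiated tumour macrophages and the tumour microglia came from brains of chimeric mice with an intracranial GL-261 graft, a mouse glioma line grown in culture before implantation. The chimeras were made in both directions between the WT and Pep3 strains, and each tumour population had 4 libraries of WT (C57BL/6J) recipients and 4 of Pep3/CD45.1 recipients. The labels read PEP-3 into WT for the former and WT into PEP-3 for the latter. Cells of donor and of recipient origin therefore differed in strain, and which origin the sorted cells had was not tested. Normal microglia came from 4 WT and 4 Pep3 samples that the labels mark Nil, with no donor strain and no graft named. The labels do not mark these mice as chimeras, and below they are grouped with the recipients of their strain. RNA was amplified from sorted cells with a low-input SMART-Seq kit, and neither the sorting gates, the ages nor the number of animals behind a library is given in the sources used here. P-values therefore measure the spread between these libraries, which may be partly technical. Tumour and normal microglia also came from different experiments. Tumour, grafting, the making of chimeras and experiment therefore cannot be told apart in any comparison with normal microglia.

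Chemical synapses pass signals between neurons. Vesicles docked by SNARE proteins such as SNAP25 fuse with the membrane when the calcium sensor synaptotagmin is triggered, and the released glutamate or GABA opens receptors that are anchored by scaffolds across the cleft. These genes are known as markers of neurons, whereas microglia and infiltrating macrophages are phagocytes. Microglia are also known to take up synaptic material, and RNA of neighbouring cells can accompany sorted cells. Whether RNA of other cells entered these libraries was not tested.

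The deposited values were signed scores from -6.50 to 6.92, with a mean of 0 for every gene over all libraries and within each recipient strain. A score is not an expression level, so these data cannot say whether a transcript was detected in any population. Differences are given on the scale of the deposited table, whose log base is not stated, with ± 1 standard error from the fit over all 17586 genes. A gene was called at a Benjamini-Hochberg adjusted p below 0.05. Sequencing depth is unknown. In these bulk samples, fewer cells of a type and less RNA per cell cannot be told apart. Marker genes followed the population labels: all 12 microglia identity genes were lower and all 10 genes of monocyte-derived macrophages were higher in both macrophage populations than in tumour microglia. Of all genes, 37% were higher and 6.35% lower in differentiated macrophages, and 36.7% higher and 5.19% lower in undifferentiated macrophages. The marker lists were chosen with earlier results of these data known, so this is not an independent check of identity. Before deposition 11 of 32 sample directions had been emptied of variation, unevenly over libraries. There were 9 libraries that kept under 50% of their own variation, from 3.42% in undifferentiated macrophage library 29 to 38.96% in tumour microglia library 27, and the others kept at least 66.0%.

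The 25 genes were lowest in tumour microglia. Their mean score was lowest there for 22 genes, and lowest in normal microglia for the other 3 (Cplx2, Grin1 and Nefm). The median of the 25 genes in a library ran from 0.30 to 1.32 in differentiated macrophages, from 0.09 to 1.23 in undifferentiated macrophages, from -2.14 to -0.05 in tumour microglia and from -0.74 to 0.50 in normal microglia. By this median the libraries of both macrophage populations lay above all tumour microglia libraries, while tumour and normal microglia overlapped. The median over all 17586 genes separated the macrophages from tumour microglia too. It ran from -0.63 to -0.02 in tumour microglia, 0.0021 to 0.58 in differentiated macrophages and 0.058 to 0.46 in undifferentiated macrophages. Tumour microglia library 27 held the lowest score of all 32 libraries for 13 of the 25 genes. Tumour microglia library 6 did so for 4 and normal microglia library 25 for 5. The highest scores were most often those of differentiated macrophage library 31, for 8 genes, and undifferentiated macrophage library 8, for 6. Over all genes, libraries 27 and 6 also had the lowest medians (-0.63 and -0.53). Libraries 31 and 8 had the highest (0.58 and 0.46).

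**Figure D1:**
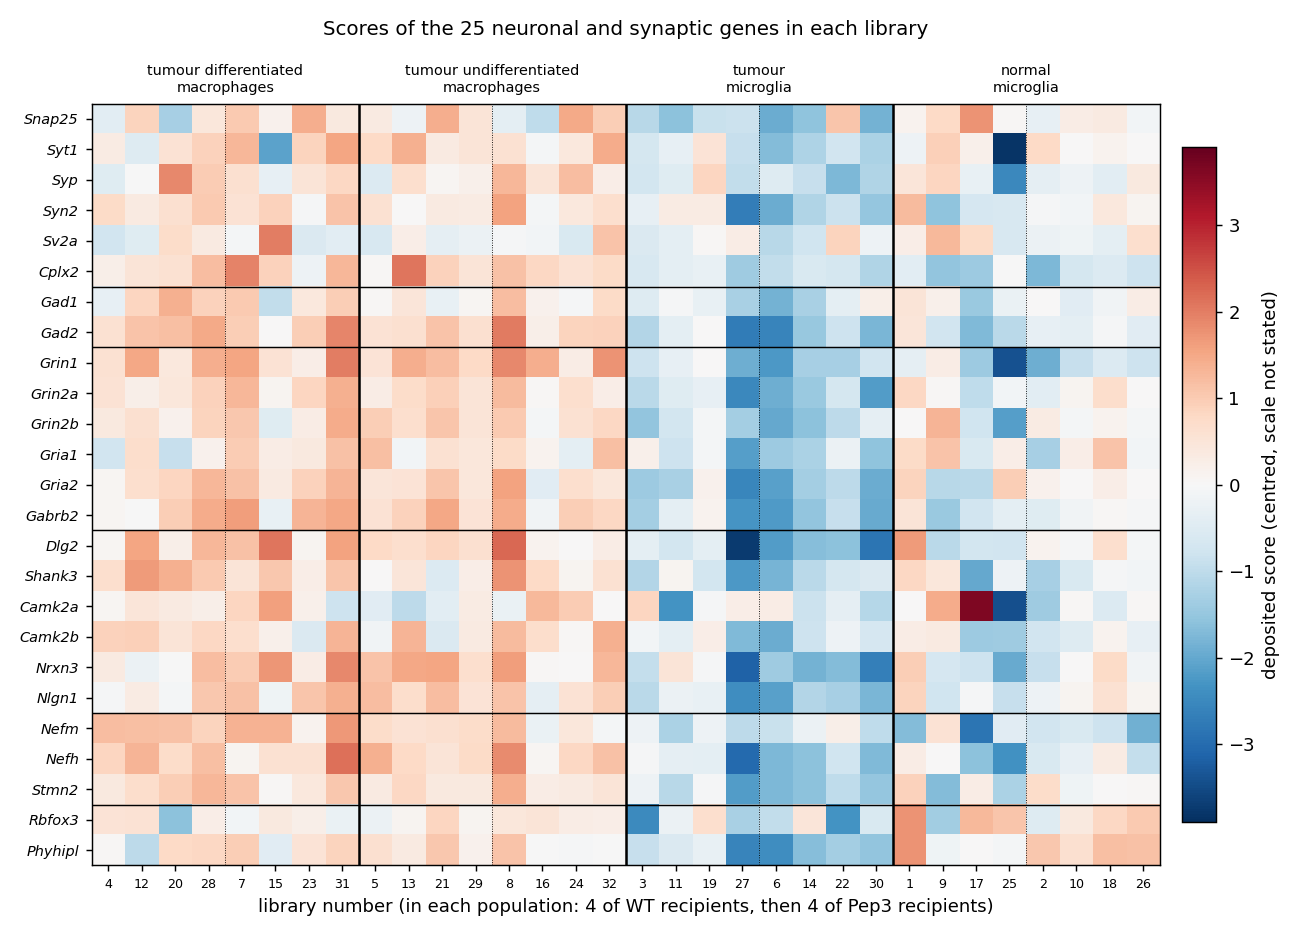
Deposited score (colour, centred, scale not stated) of the 25 neuronal and synaptic genes (rows, grouped by role) in the 32 libraries (columns, grouped by population, with WT recipients left of Pep3 recipients). Tumour microglia columns are mostly blue, with library 27 lowest for 13 genes, and the macrophage columns are mostly red.

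Tumour microglia were compared with normal microglia, both resident cells of the brain. Of the 25 genes, 12 fell and 0 rose in tumour microglia, with 12% of all genes called lower and 4.66% called higher. The genes that fell covered every role: Snap25 and Syn2 of the vesicle, the GABA-making enzyme Gad2, the receptor subunits Grin2a, Gria1, Gria2 and Gabrb2, the scaffold gene Dlg2, the adhesion genes Nrxn3 and Nlgn1, the microtubule regulator Stmn2, and Phyhipl. The median difference of the 25 genes was -1.13, against -0.25 over all genes. Only Phyhipl had all tumour microglia libraries below all normal ones, which held for 0.762% of all genes. With each library's median over all genes subtracted, 9 of the 25 were called lower. Of all genes, 7.72% were then higher and 7.60% lower. The calls of Snap25, Syn2 and Gria1 were the ones lost.

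The number of genes that fell in tumour microglia rested on a few libraries. It was 1 without tumour microglia library 27, 1 without normal microglia library 1, 1 without normal library 18, 4 without normal library 10 and 7 without normal library 26. Over all genes, the number called lower in these fits ran from 82 to 1128, against 2116 of 17586 with all 32 libraries. The loss of calls was therefore not particular to the 25 genes. Phyhipl was called lower in all 32 fits that left out 1 library, and each of the other 11 genes lost its call in 3 to 10 of them. Without the 9 libraries that kept under 50% of their variation and without the covariate terms, limma called 0 of the 25 genes, 5 had an unadjusted p below 0.05, as did 14.3% of all genes, and their median difference was -0.33 against -0.02 over all genes.

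Both macrophage populations were set against tumour microglia, the resident cells of tumour-bearing brains. For either recipient strain the macrophages and the tumour microglia came from different experiments. In differentiated macrophages 22 of the 25 genes rose and none fell, with 37% of all genes called higher and 6.35% lower. In undifferentiated macrophages 21 rose and none fell, with 36.7% of all genes called higher and 5.19% lower. These comparisons share the tumour microglia libraries, so the counts are not independent of each other. The median difference of the 25 genes was 1.98 in differentiated and 1.93 in undifferentiated macrophages, against 0.65 and 0.71 over all genes. All differentiated macrophage libraries lay above all tumour microglia libraries for 8 genes (Cplx2, Grin1, Grin2a, Dlg2, Shank3, Nlgn1, Nefh and Stmn2), with 7.09% of all genes so separated. In undifferentiated macrophages this held for 9 genes (Cplx2, Gad2, Grin1, Grin2a, Grin2b, Dlg2, Nefh, Stmn2 and Phyhipl), with 6.77% of all genes.

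With library medians subtracted, 16 of the 25 genes were called higher in differentiated and 15 in undifferentiated macrophages than in tumour microglia. Of all genes, 19.8% were then higher and 19.2% lower in differentiated macrophages, and 16.7% higher and 16.3% lower in undifferentiated macrophages. Within experiment 3, which held macrophages of WT recipients and tumour microglia of Pep3 recipients, 20 genes were called higher in differentiated and 18 in undifferentiated macrophages, with 33.8% and 32.9% of all genes. Within experiment 4, with the strains the other way round, these counts were 15 and 4, with 15.6% and 7.82% of all genes. Fits within an experiment used 4 libraries of each population and left out the covariate terms, unlike the main fit.

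Against normal microglia, 9 of the 25 genes were higher in differentiated macrophages, with 24.7% of all genes called higher, and 8 in undifferentiated macrophages, with 21.8%. None was called lower in either, with 8.02% and 6.18% of all genes called lower. The median difference of the 25 genes was 0.83 and 0.79, against 0.53 and 0.57 over all genes. Grin1 and Cplx2 were the only genes of the 25 with all undifferentiated macrophage libraries above all normal libraries, with 5.51% of all genes so separated. With library medians subtracted the counts were 5 and 4, and the direction over all genes turned. Then 10.5% of all genes were higher and 13.1% lower in differentiated macrophages, and 7.81% higher and 10.6% lower in undifferentiated macrophages. The count for differentiated macrophages was 5 without their library 31, 1 without normal library 10 and 3 without normal library 26. The count for undifferentiated macrophages was 2 without differentiated macrophage library 31, 5 without their own library 29, 2 without normal library 2 and 3 without normal library 26. Shares of all genes called in these fits are not given, so these losses cannot be told from losses over all genes.

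Between differentiated and undifferentiated macrophages no difference passed. None of the 25 was called by limma, none had an unadjusted p below 0.05, and 2 of all genes were called (0.0114%). There were 491 genes at an unadjusted p below 0.05. The differences of the 25 genes ran from -0.53 (Gria1) to 0.77 (Nefm), with a median of -0.05. The 3 genes with the largest difference for their error were Nefm (0.77 ± 0.52), Gria1 (-0.53 ± 0.47) and Shank3 (0.56 ± 0.51).

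**Figure D2:**
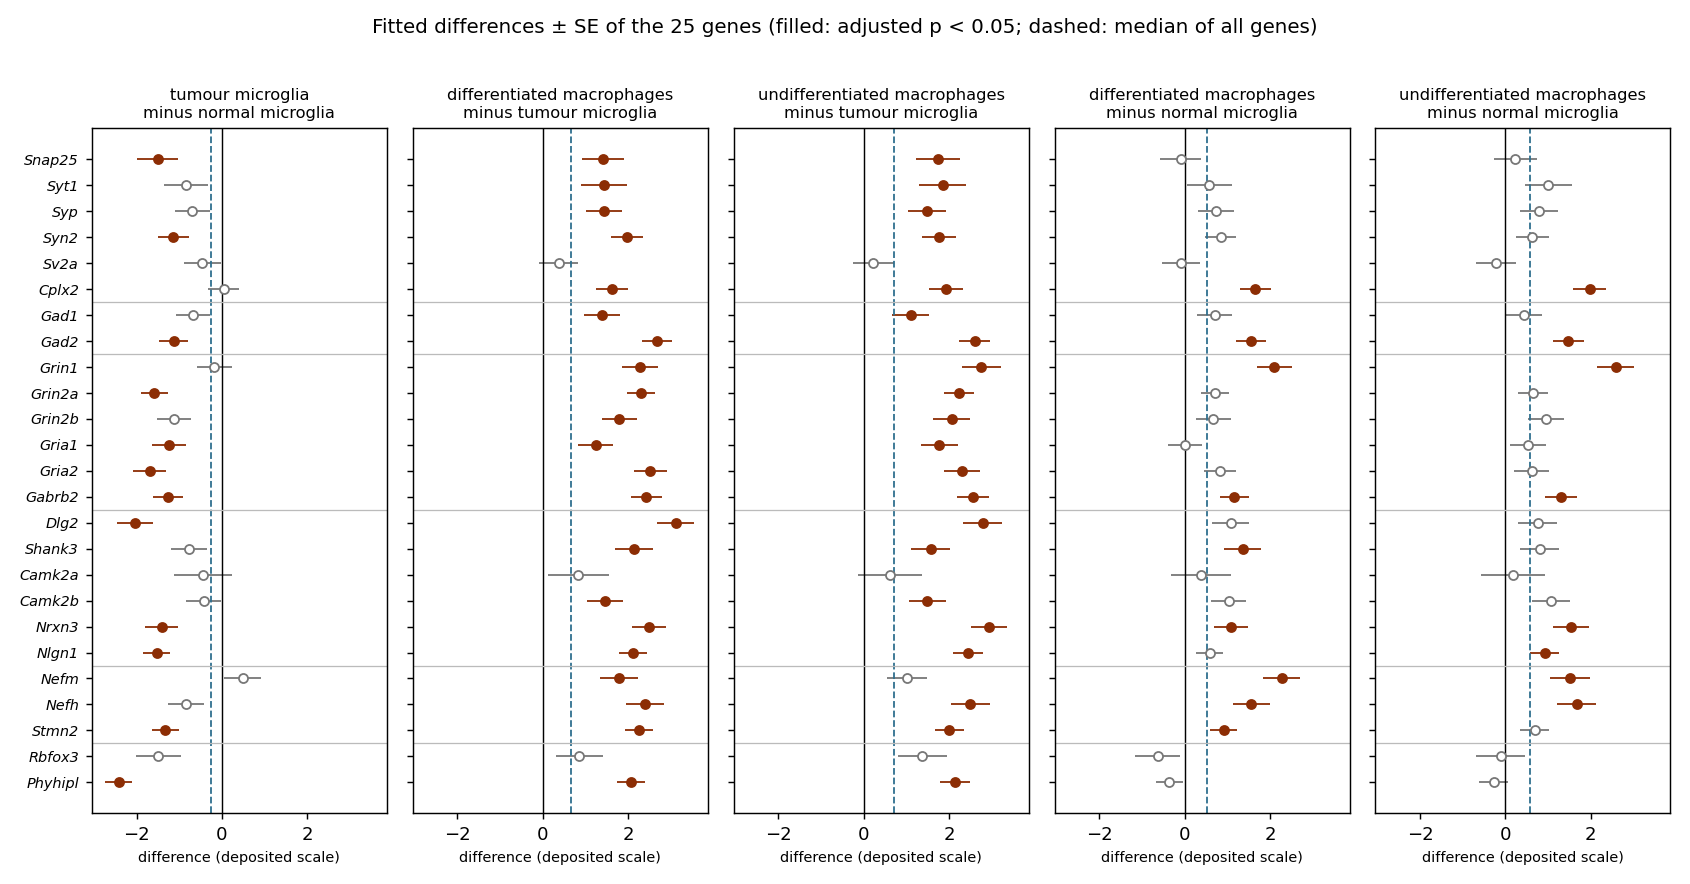
Fitted difference ± standard error (x axis, deposited scale) of each of the 25 genes (rows, grouped by role) in 5 comparisons of 8 libraries against 8. Filled points have an adjusted p below 0.05, and the dashed line is the median difference of all 17586 genes. In tumour microglia 12 filled points lie below 0, and against tumour microglia 22 and 21 lie above 0.

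For each gene, the scores of a population are its lowest, median and highest of 8 libraries, in that order. Among the vesicle genes, Snap25, which encodes a membrane SNARE protein that drives vesicle fusion, scored -1.299, 0.41 and 1.42 in differentiated macrophages, -0.99, 0.43 and 1.48 in undifferentiated macrophages, -1.94, -1.33 and 1.09 in tumour microglia and -0.31, 0.21 and 1.76 in normal microglia. Tumour microglia library 22, at 1.09, stood apart from the other libraries of that population. Snap25 was lower in tumour than in normal microglia, with a difference of -1.505 ± 0.47 (adjusted p = 0.0326), and higher in differentiated and undifferentiated macrophages than in tumour microglia by 1.41 ± 0.49 and 1.74 ± 0.51. The call in tumour microglia was lost in 10 of the 32 fits that left out 1 library, where the difference ran from -2.500 without normal library 1 to -0.95 without normal library 2. Syn2, a synapsin that tethers vesicles, scored -0.04, 0.68 and 1.12 in differentiated macrophages, -0.09, 0.38 and 1.56 in undifferentiated macrophages, -2.68, -1.01 and 0.33 in tumour microglia and -1.58, -0.06 and 1.22 in normal microglia. Its populations overlapped throughout. It fell in tumour against normal microglia, with a difference of -1.13 ± 0.36 (adjusted p = 0.0344), and compared with tumour microglia its difference was 1.98 ± 0.38 in differentiated and 1.76 ± 0.39 in undifferentiated macrophages. The fall of Syn2 was no longer called in 7 fits without 1 library, with library medians subtracted or without the covariates, and it was -0.21 without normal library 1.

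Cplx2 encodes a complexin, which binds the assembled SNARE proteins. It scored -0.19, 0.74 and 1.93 in differentiated macrophages, 0.05, 0.78 and 2.09 in undifferentiated macrophages, -1.39, -0.66 and -0.29 in tumour microglia and -1.76, -0.74 and -0.0046 in normal microglia. Tumour and normal microglia overlapped, with a difference of 0.04 ± 0.36 (adjusted p = 0.946), and both macrophage populations were called higher than either. The differences of differentiated and undifferentiated macrophages were 1.61 ± 0.38 and 1.93 ± 0.39 against tumour microglia, and 1.66 ± 0.37 and 1.98 ± 0.39 against normal microglia.

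Syt1, the calcium sensor of fast release, scored -2.09, 0.72 and 1.54 in differentiated macrophages, -0.09, 0.54 and 1.43 in undifferentiated macrophages, -1.69, -0.81 and 0.53 in tumour microglia and -3.83, 0.08 and 0.93 in normal microglia. Syp, which encodes the vesicle protein synaptophysin, scored -0.48, 0.56 and 1.87 in differentiated macrophages, -0.54, 0.39 and 1.28 in undifferentiated macrophages, -1.74, -0.80 and 0.85 in tumour microglia and -2.503, -0.24 and 0.83 in normal microglia. In both genes normal microglia library 25 held the lowest score, far below the other libraries of normal microglia. Syt1 and Syp were higher in differentiated macrophages than in tumour microglia by 1.43 ± 0.54 and 1.44 ± 0.43, and in undifferentiated macrophages by 1.85 ± 0.56 and 1.49 ± 0.45. Between tumour and normal microglia the differences, -0.85 ± 0.52 and -0.70 ± 0.41, did not pass (adjusted p = 0.268 and 0.255). The calls of Syt1 and Syp against tumour microglia were lost with medians subtracted, and that of Syt1 in differentiated macrophages in 10 fits without 1 library. Sv2a, a glycoprotein of the vesicle membrane, passed in no comparison. It scored -0.74, -0.24 and 1.998 in differentiated macrophages, -0.61, -0.17 and 1.11 in undifferentiated macrophages, -1.07, -0.29 and 0.86 in tumour microglia and -0.61, 0.06 and 1.27 in normal microglia. All populations overlapped, and its difference was 0.37 ± 0.45 for differentiated macrophages and 0.23 ± 0.47 for undifferentiated macrophages against tumour microglia.

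Gad1 and Gad2 encode the enzymes that make GABA from glutamate. Gad2 scored 0.01, 1.04 and 1.89 in differentiated macrophages, 0.21, 0.74 and 2.03 in undifferentiated macrophages, -2.72, -1.31 and 0.03 in tumour microglia and -1.72, -0.41 and 0.47 in normal microglia. Undifferentiated macrophages lay wholly above tumour microglia. Gad2 was -1.13 ± 0.34 (adjusted p = 0.0263) in tumour against normal microglia, and the rises of 2.68 ± 0.35 in differentiated and 2.60 ± 0.37 in undifferentiated macrophages over tumour microglia were among the largest of the 25 genes. It was also higher than in normal microglia, by 1.56 ± 0.34 and 1.48 ± 0.37. Without tumour microglia library 27 the fall of Gad2 was -0.74, and 6 such fits lost its call. Gad1 scored -0.97, 0.86 and 1.39 in differentiated macrophages, -0.29, 0.12 and 1.21 in undifferentiated macrophages, -1.84, -0.44 and 0.23 in tumour microglia and -1.44, -0.06 and 0.51 in normal microglia. Gad1 passed against tumour microglia alone, by 1.38 ± 0.42 in differentiated and 1.10 ± 0.44 in undifferentiated macrophages. The call in undifferentiated macrophages was lost in 22 of the 32 fits without 1 library, with values down to 0.63, and within either experiment. Both calls of Gad1 were lost with medians subtracted.

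Of the receptor subunits, Gria2, which sets the calcium permeability of AMPA-type glutamate receptors, scored 0.07, 0.87 and 1.32 in differentiated macrophages, -0.43, 0.51 and 1.58 in undifferentiated macrophages, -2.55, -1.38 and 0.15 in tumour microglia and -1.09, 0.09 and 0.95 in normal microglia. It was lower in tumour than in normal microglia, the difference being -1.69 ± 0.38 (adjusted p = 0.00477). Against tumour microglia its difference was 2.52 ± 0.40 in differentiated and 2.31 ± 0.41 in undifferentiated macrophages. Gria1, another AMPA subunit, scored -0.91, 0.34 and 1.14 in differentiated macrophages, -0.38, 0.52 and 1.17 in undifferentiated macrophages, -2.14, -1.02 and 0.21 in tumour microglia and -1.28, 0.26 and 1.11 in normal microglia. It showed the same signs with smaller differences, -1.24 ± 0.40, 1.24 ± 0.41 and 1.77 ± 0.43 in that order. The call of Gria1 in tumour microglia was lost in 9 fits without 1 library, at -0.53 without normal library 18, and that in differentiated macrophages in 4, at 0.60 without tumour microglia library 27. Gabrb2, a beta subunit of the GABA-A receptor, scored -0.30, 1.15 and 1.64 in differentiated macrophages, -0.15, 0.86 and 1.502 in undifferentiated macrophages, -2.31, -1.43 and 0.15 in tumour microglia and -1.46, -0.26 and 0.50 in normal microglia. It was lower in tumour than in normal microglia, at -1.26 ± 0.34. It was higher in differentiated and undifferentiated macrophages than in tumour microglia, by 2.43 ± 0.35 and 2.57 ± 0.37, and than in normal microglia, by 1.17 ± 0.34 and 1.303 ± 0.37. Both calls of Gabrb2 against normal microglia were lost with medians subtracted.

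Grin1, Grin2a and Grin2b encode subunits of the NMDA receptor. Grin1, the subunit that every NMDA receptor needs, scored 0.27, 1.01 and 1.99 in differentiated macrophages, 0.30, 1.32 and 1.87 in undifferentiated macrophages, -2.23, -1.04 and 0.02 in tumour microglia and -3.39, -0.84 and 0.29 in normal microglia. Macrophages of both kinds lay wholly above tumour microglia, and tumour and normal microglia differed by -0.18 ± 0.41 (adjusted p = 0.798). Its differences from normal microglia, 2.10 ± 0.42 in differentiated and 2.58 ± 0.44 in undifferentiated macrophages, stood beside differences from tumour microglia of 2.28 ± 0.43 and 2.76 ± 0.45. Grin2a, a regulatory subunit, scored 0.10, 0.70 and 1.38 in differentiated macrophages, 0.06, 0.57 and 1.25 in undifferentiated macrophages, -2.52, -1.25 and -0.31 in tumour microglia and -0.997, 0.02 and 0.82 in normal microglia. It was lower in tumour than in normal microglia, at -1.59 ± 0.32 (adjusted p = 0.00229) and higher in macrophages than in tumour microglia by 2.30 ± 0.33 and 2.23 ± 0.35. Grin2b, its counterpart of the developing brain, scored -0.49, 0.50 and 1.43 in differentiated macrophages, -0.07, 0.73 and 1.07 in undifferentiated macrophages, -1.98, -1.17 and -0.07 in tumour microglia and -2.16, -0.04 and 1.32 in normal microglia. It differed by -1.11 ± 0.40 (adjusted p = 0.0571) between tumour and normal microglia, which did not pass, and by 1.79 ± 0.41 and 2.07 ± 0.43 between the macrophages and tumour microglia.

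Many neuronal genes carry an RE1 element, to which the repressor REST binds outside neurons. The right-hand end of this element, GGACAGCG, was searched on both strands of RefSeq promoter windows of build GRCm38.p6, which run from 250 bases before to 50 after a start. It was present in 413 of 32851 windows (1.26%). Of the 25 genes, 17 had a window (27 windows in all), and the letters were found in Gad2 and Gria2. The motif was chosen after matches were seen. The first 120 bases of both windows are printed so that the match, in capitals, can be seen beside the letters to its left and right. A match is only a description of the letters, and nothing is drawn from it about the factor.
Gad2, chr2:22622077-22622196, plus strand, match 155 to 148 bases before the start: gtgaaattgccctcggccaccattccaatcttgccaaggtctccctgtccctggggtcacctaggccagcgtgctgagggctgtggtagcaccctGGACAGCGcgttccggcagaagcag
Gria2, chr3:80802966-80803085, minus strand, match on the opposite strand, 172 to 165 bases before the start: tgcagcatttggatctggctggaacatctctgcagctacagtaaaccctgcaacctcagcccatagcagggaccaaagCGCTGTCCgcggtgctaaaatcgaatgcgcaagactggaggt

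Among scaffold and adhesion genes, Dlg2, a scaffold of the postsynaptic density, scored 0.09, 1.22 and 2.09 in differentiated macrophages, 0.01, 0.64 and 2.23 in undifferentiated macrophages, -3.73, -1.64 and -0.37 in tumour microglia and -1.05, -0.05 and 1.65 in normal microglia. Both macrophage populations lay wholly above tumour microglia. Dlg2 fell in tumour against normal microglia, at -2.03 ± 0.42 (adjusted p = 0.00287) and had a difference of 3.11 ± 0.44 in differentiated and 2.79 ± 0.46 in undifferentiated macrophages against tumour microglia. Nrxn3, a presynaptic neurexin, scored -0.24, 0.67 and 1.87 in differentiated macrophages, 0.02, 1.19 and 1.62 in undifferentiated macrophages, -3.15, -1.53 and 0.49 in tumour microglia and -1.96, -0.40 and 0.95 in normal microglia. Nlgn1, a postsynaptic neuroligin that binds neurexins across the cleft, scored -0.17, 0.69 and 1.38 in differentiated macrophages, -0.35, 0.81 and 1.22 in undifferentiated macrophages, -2.42, -1.21 and -0.24 in tumour microglia and -0.89, 0.02 and 0.86 in normal microglia. Both fell in tumour microglia, with differences of -1.41 ± 0.39 for Nrxn3 and -1.53 ± 0.32 for Nlgn1. Both rose against tumour microglia, Nrxn3 by 2.495 ± 0.40 and Nlgn1 by 2.11 ± 0.33 in differentiated macrophages, and by 2.94 ± 0.42 and 2.45 ± 0.34 in undifferentiated macrophages. Against normal microglia Nrxn3 rose in differentiated and undifferentiated macrophages, by 1.09 ± 0.39 and 1.54 ± 0.42. Nlgn1 rose in undifferentiated macrophages by 0.92 ± 0.34 (adjusted p = 0.0474), and its 0.59 ± 0.32 in differentiated macrophages did not pass. The Nlgn1 call against normal microglia was lost in 22 of the 32 fits without 1 library, with medians subtracted and without the covariates. Leaving out normal library 1 took the fall of Nrxn3 to -0.54 and that of Dlg2 to -0.90, and neither was then called. Both calls of Nrxn3 against normal microglia were lost with medians subtracted, and that in differentiated macrophages in 11 fits without 1 library.

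Shank3, a scaffold below Dlg family proteins, scored 0.26, 1.03 and 1.65 in differentiated macrophages, -0.53, 0.37 and 1.76 in undifferentiated macrophages, -2.24, -0.89 and 0.11 in tumour microglia and -1.99, -0.15 and 0.82 in normal microglia. It rose in differentiated macrophages, by 2.13 ± 0.44 against tumour microglia and 1.36 ± 0.43 against normal microglia, and in undifferentiated macrophages by 1.57 ± 0.46 against tumour microglia. Its difference between tumour and normal microglia, -0.77 ± 0.43, did not pass. The Shank3 call against normal microglia was lost in 5 fits without 1 library and with medians subtracted, and without tumour microglia library 27 the difference in undifferentiated macrophages was 1.001 and not called. Camk2a and Camk2b encode kinase subunits of calcium signalling. Camk2b scored -0.55, 0.73 and 1.33 in differentiated macrophages, -0.57, 0.53 and 1.38 in undifferentiated macrophages, -1.92, -0.52 and 0.26 in tumour microglia and -1.43, -0.40 and 0.36 in normal microglia. It was higher in differentiated and undifferentiated macrophages than in tumour microglia, by 1.46 ± 0.42 and 1.49 ± 0.44. Neither Camk2b call held with medians subtracted, nor without tumour microglia library 27 or differentiated macrophage library 31. Camk2a passed in no comparison, and scored -0.80, 0.29 and 1.61 in differentiated macrophages, -1.02, -0.13 and 1.27 in undifferentiated macrophages, -2.32, -0.20 and 0.85 in tumour microglia and -3.43, 0.04 and 3.65 in normal microglia. Normal microglia spread the most, and the difference was 0.83 ± 0.72 in differentiated macrophages against tumour microglia.

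Of the cytoskeletal genes, Stmn2, a stathmin of growing axons, scored 0.05, 0.82 and 1.31 in differentiated macrophages, 0.29, 0.39 and 1.42 in undifferentiated macrophages, -2.19, -1.297 and -0.05 in tumour microglia and -1.70, 0.04 and 0.89 in normal microglia. Macrophages of both kinds lay wholly above tumour microglia, and its differences were -1.33 ± 0.31 (adjusted p = 0.00686) in tumour against normal microglia, 2.25 ± 0.33 in differentiated and 2.01 ± 0.34 in undifferentiated macrophages against tumour microglia. Nefh, the heavy neurofilament chain, scored 0.11, 0.77 and 2.14 in differentiated macrophages, 0.09, 0.80 and 1.84 in undifferentiated macrophages, -3.03, -1.19 and -0.05 in tumour microglia and -2.36, -0.45 and 0.33 in normal microglia. It rose in differentiated and undifferentiated macrophages, by 2.40 ± 0.44 and 2.499 ± 0.46 against tumour microglia and by 1.57 ± 0.43 and 1.67 ± 0.45 against normal microglia. The rises of Nefh over normal microglia were each lost in 4 fits without 1 library, down to 0.97 without normal library 26 in differentiated and 0.83 without differentiated macrophage library 31 in undifferentiated macrophages. The fall of Stmn2 was -0.87 and not called without normal library 1.

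Nefm, the medium neurofilament chain, scored 0.15, 1.19 and 1.70 in differentiated macrophages, -0.25, 0.60 and 1.22 in undifferentiated macrophages, -1.23, -0.56 and 0.24 in tumour microglia and -2.84, -0.78 and 0.57 in normal microglia. It was lowest in normal microglia, and tumour microglia differed from them by 0.49 ± 0.44 (adjusted p = 0.475). Its difference from normal microglia in differentiated macrophages, 2.27 ± 0.44, was the highest of the 25 genes in that comparison. It also rose by 1.51 ± 0.47 in undifferentiated macrophages against normal microglia and by 1.79 ± 0.45 in differentiated macrophages against tumour microglia. Without normal library 26 the difference of Nefm from normal microglia was 1.41 in differentiated and 0.70 in undifferentiated macrophages, and neither was called.

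Phyhipl scored -1.02, 0.67 and 0.96 in differentiated macrophages, -0.05, 0.27 and 1.10 in undifferentiated macrophages, -2.58, -1.42 and -0.30 in tumour microglia and -0.17, 0.83 and 1.75 in normal microglia. Every tumour microglia library was below every normal one, with a difference of -2.42 ± 0.32 (adjusted p = 7.01e-05), and macrophages were above tumour microglia by 2.06 ± 0.33 and 2.14 ± 0.34. Its differences from normal microglia, -0.36 ± 0.32 in differentiated and -0.28 ± 0.34 in undifferentiated macrophages, did not pass. Rbfox3, whose product is the nuclear neuron marker NeuN, scored -1.61, 0.24 and 0.57 in differentiated macrophages, -0.22, 0.28 and 0.83 in undifferentiated macrophages, -2.48, -0.78 and 0.67 in tumour microglia and -1.36, 0.91 and 1.76 in normal microglia. It passed in no comparison, with -1.49 ± 0.53 (adjusted p = 0.0571) for tumour against normal microglia and 1.37 ± 0.58 (adjusted p = 0.0595) for undifferentiated macrophages against tumour microglia.

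Most of the 25 genes varied together over the 32 libraries. As a description over libraries that share populations and the removal of sample directions, the 300 pairs had a median Pearson r of 0.61, 194 pairs were above 0.5 and 12 were below 0. The closest pair was Nlgn1 and Gabrb2 (r = 0.93) and the least alike were Rbfox3 and Nefm (r = -0.21). Camk2a, Sv2a and Rbfox3 had the lowest mean r with the other genes, 0.09, 0.11 and 0.23. After the fit, within population and recipient strain, the median r of the pairs was 0.12. Library medians over all genes ran from -0.63 to 0.58, and no r for pairs of other genes is given here. Whether the 25 genes varied together more than other genes was not tested.

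In macrophages against tumour microglia, other neural genes and the sensory receptor families mostly moved in the direction of the 25 genes. Of 42 further neuronal genes in the table, 29 were higher in differentiated macrophages than in tumour microglia and 29 in undifferentiated macrophages, and none was lower. With library medians subtracted these counts were 24 and 20. The shares before subtraction were 69.0% in each, against 37% and 36.7% of all genes. After it they were 57.1% and 47.6%, against 19.8% and 16.7%. Pclo and Dlgap1, which encode proteins of the presynaptic active zone and the postsynaptic density, rose by 2.59 ± 0.34 and 2.79 ± 0.35 in differentiated macrophages. In tumour against normal microglia 10 of the 42 fell and 1 rose, and 9 and 1 did with medians subtracted. The shares that fell were 23.8% and 21.4%, against 12% and 7.60% of all genes. Those that fell included Pclo (-1.77 ± 0.33), Scn1a (-1.67 ± 0.33), Dlgap1 (-1.59 ± 0.34) and Celf4 (-1.59 ± 0.35). Against normal microglia 14 of the 42 rose in each macrophage population and none fell. This was 33.3%, against 24.7% of all genes in differentiated and 21.8% in undifferentiated macrophages. With medians subtracted, 6 rose and 2 fell in differentiated macrophages, and 3 rose and 1 fell in undifferentiated macrophages. The rises were then 14.3% and 7.14%, against 10.5% and 7.81% of all genes.

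Markers of other brain cells were measured beside these counts. In tumour against normal microglia, 3 of 11 astrocyte genes fell and 1 rose, 1 of 10 oligodendrocyte genes fell and 1 rose, and 3 of 5 oligodendrocyte precursor genes fell. The shares that fell were 27.3%, 10% and 60%, against 12% of all genes. In differentiated macrophages against tumour microglia, 8 of the astrocyte genes rose and 1 fell, 5 oligodendrocyte genes rose, all 5 precursor genes rose and 5 of 6 genes of the glioma and proliferating neural cell list rose. The same counts held in undifferentiated macrophages. Vim stood in both the glioma list and the list of monocyte-derived macrophage genes, so the glioma list does not separate glioma cells from macrophages. Of all genes, 37% rose in differentiated and 36.7% in undifferentiated macrophages. Endothelial genes rose in 4 of 6 cases in differentiated and 3 of 6 in undifferentiated macrophages. Both T cell genes present of 8 listed rose in differentiated macrophages. With medians subtracted, the rises in differentiated and undifferentiated macrophages numbered 6 and 6 for astrocyte, 3 and 4 for oligodendrocyte, 4 and 5 for precursor, 3 and 4 for glioma and 1 and 1 for endothelial genes. The lowest of these shares, 16.7% of endothelial genes in each, stood against 19.8% and 16.7% of all genes. Of the median scores by library, the astrocyte list spanned -0.0011 to 1.08 in differentiated macrophages, 0.19 to 1.26 in undifferentiated macrophages, -1.74 to -0.28 in tumour microglia and -1.08 to 0.39 in normal microglia.

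Sensory receptor genes, expressed in the olfactory and vomeronasal epithelium and chosen here after the data were seen, followed the same order. Of 544 rows with Olfr symbols, 372 were higher in differentiated and 375 in undifferentiated macrophages than in tumour microglia, with median differences of 1.38 and 1.53. With library medians subtracted, 132 and 118 were. The shares before subtraction were 68.4% and 68.9%, against 37% and 36.7% of all genes. After it they were 24.3% and 21.7%, against 19.8% and 16.7%. In tumour against normal microglia 59 were lower and 1 was higher, with a median of -0.53, and with medians subtracted 24 were lower. The lower shares, 10.8% and 4.41%, were below the 12% and 7.60% of all genes. Of 230 rows with Vmn symbols, 176 and 175 were higher in the macrophages, with medians of 1.67 and 1.69, and 69 were lower in tumour than in normal microglia, with a median of -0.87. With medians subtracted the higher counts were 108 and 97 and the lower count 47. The higher shares of the Vmn rows before subtraction were 76.5% and 76.1%, against 37% and 36.7% of all genes. Subtraction left 46.96% and 42.2%, against 19.8% and 16.7% of all genes. Vmn rows lower in tumour than in normal microglia made up 30% before and 20.4% after subtraction, against 12% and 7.60% of all genes. The library medians of these families are drawn beside those of the 25 genes. Their part in the differences of the neuronal genes was not tested, nor was that of depth or of RNA from other brain cells.

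**Figure D3:**
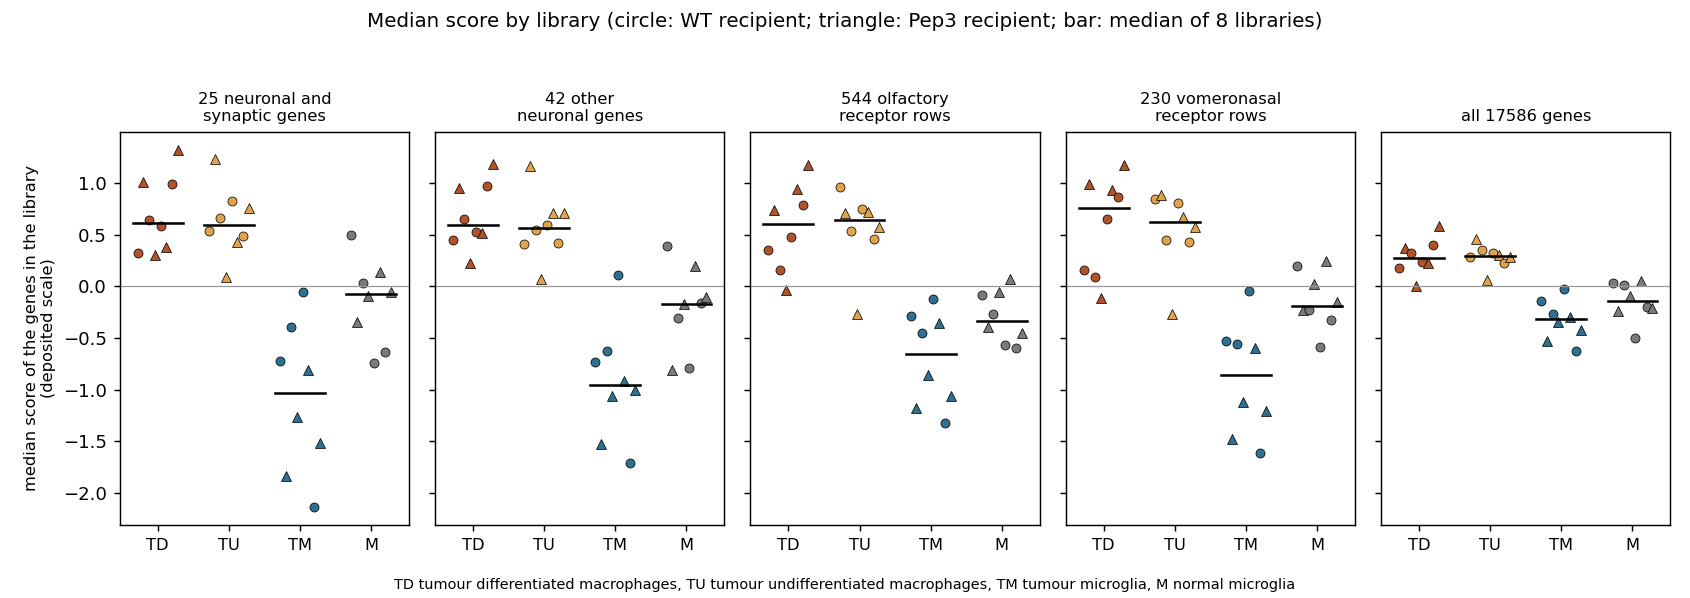
Median score (y axis, deposited scale) in each library of the 25 neuronal and synaptic genes, 42 other neuronal genes, 544 olfactory receptor rows, 230 vomeronasal receptor rows and all 17586 genes. Bars are medians of 8 libraries, and each list has tumour microglia at the low end, down to -2.14 for the 25 genes.

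Within each recipient strain, the deposited means of 4 libraries against 4 were compared. In tumour against normal microglia, the difference was below 0 for 19 of the 25 genes in WT recipients, with a median of -0.45, and for 23 genes in Pep3 recipients, with a median of -1.28. In differentiated macrophages against tumour microglia it was above 0 for all 25 genes in both strains, with medians of 1.298 in WT and 1.84 in Pep3 recipients. In undifferentiated macrophages it was above 0 for 23 genes in WT and 25 in Pep3 recipients.

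The difference between strains was tested in the same limma model. For tumour against normal microglia, WT minus Pep3 was called for 8 of the 25 genes, with 5.03% of all genes called, and was positive for each, so the difference was more negative in Pep3 recipients. These were Nrxn3 (4.95 ± 1.23), Dlg2 (4.66 ± 1.35), Phyhipl (4.63 ± 1.004), Syn2 (4.51 ± 1.15), Stmn2 (4.44 ± 0.999), Gad2 (4.22 ± 1.08), Gabrb2 (3.84 ± 1.08) and Nlgn1 (3.45 ± 1.01). In deposited means, Dlg2 differed by -1.09 in WT and -2.25 in Pep3 recipients, and Nrxn3 by -0.28 and -1.82. The fitted strain differences exceed those of the deposited means, and only 39.6% of this contrast was left after the emptied directions, against 96.7% of the contrast averaged over strains. Fitted in WT recipients alone, with 3 residual degrees of freedom, the 8 genes had differences above 0, from 0.21 for Dlg2 to 2.15 for Syn2, and none passed.

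For differentiated macrophages against tumour microglia the strain difference was called for Nrxn3 (-4.99 ± 1.08, adjusted p = 0.0475), with 0.449% of all genes called. It was called for none of the 25 genes in the other 4 comparisons. Of these, the comparison of undifferentiated macrophages with tumour microglia had 13 of the 25 genes and 16.2% of all genes at an unadjusted p below 0.05, and 0.00569% of all genes called. Against normal microglia 3 of the 25 and 8.17% of all genes were at that level in differentiated macrophages, with 0.0171% of all genes called. In undifferentiated macrophages 0 of the 25 and 8.28% of all genes were, with 0.0227% called. Between the macrophage populations 0 of the 25 and 4.04% of all genes were, with 0% called. Recipient strain goes with experiment in every population, so the strains cannot be told apart from experiments here.

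**Figure D4:**
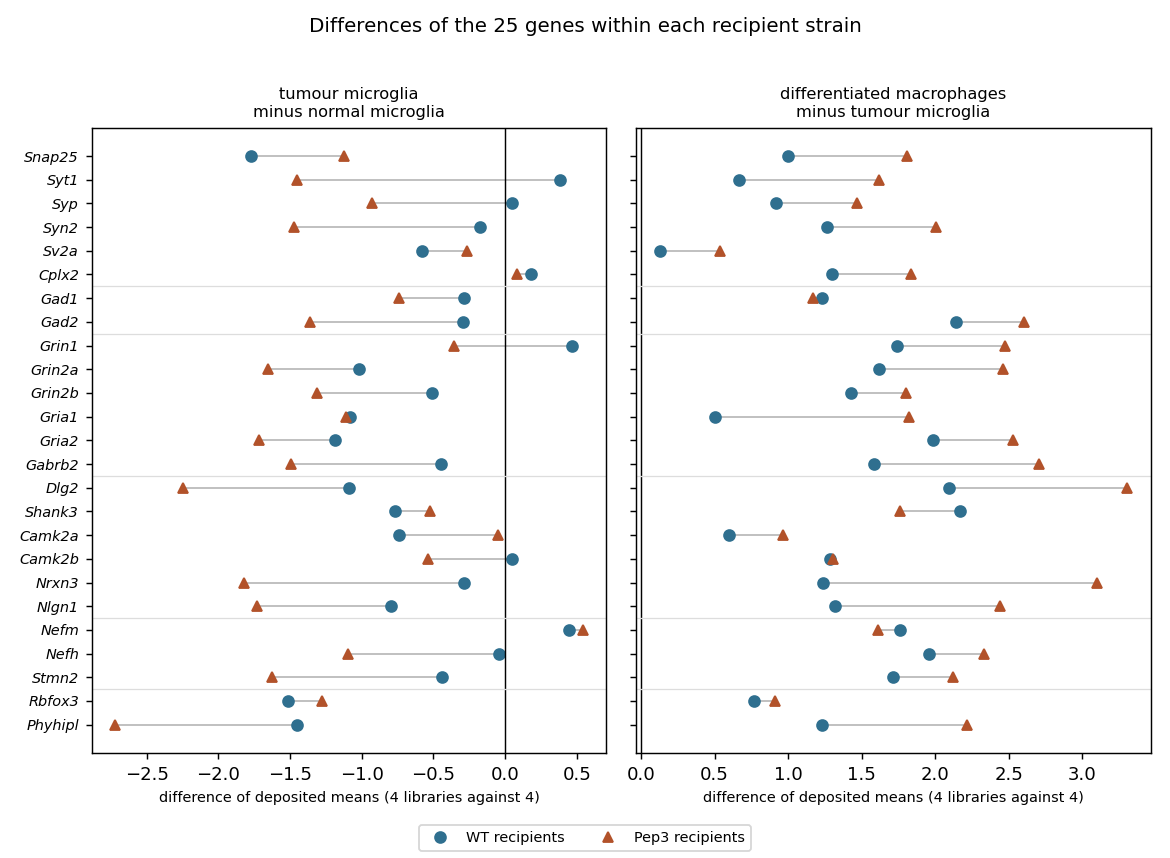
Difference of deposited means (x axis, 4 libraries against 4) of the 25 genes in WT recipients (circles) and Pep3 recipients (triangles), for tumour microglia minus normal microglia and for differentiated macrophages minus tumour microglia. In the first panel 19 circles and 23 triangles lie below 0, and in the second all 25 of each lie above 0.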

How the data were processed

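RNA from sorted mouse brain cells was made into cDNA with a low-input SMART-Seq kit, per the labels' protocols. The submitters' processing notes name STAR 2.5.0a, RSEM 1.3.0, FastQC and genome build mm9. The authors deposited a table of 17586 genes in 32 libraries, used here as scores of unstated scale, because its values are signed and centred. No filter, pseudocount or logarithm was applied. Genes were fitted with limma 3.58.1 in R 4.3.3, with robust empirical Bayes, 1 mean per population in each strain, and 1 covariate for each of the 11 sample directions without variation, leaving 15 residual degrees of freedom. Fitted differences can therefore depart from differences of means. Tests were two-sided, adjusted over all genes, and averaged over strains. The model was tested on simulated data. Genes were matched by symbol; Mtap2, an older symbol of Map2 in the RefSeq table, was kept apart.

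The 25 genes and all gene lists were chosen with earlier results of these data known. Every gene of the list that was present is described; values by library are given for genes called in a comparison, or for the 3 with the largest difference over standard error where fewer were called, and genes of other lists only if called, at most 4 a list. A result on 1 of the other neuronal genes is not reported here. Alternatives left out libraries, strains, experiments or the covariates, subtracted library medians, or changed the variance model or threshold. Promoter sequences are from RefSeq (GRCm38.p6) and were used for sequence only.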

Additional observations from a re-analysis of the deposited data

Results flagged for a closer look

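In 8 of the 100 combinations of gene and population, the library at one end stood far from the others by Dixon's criterion, which chance alone gives in about 1 in 20 groups. For 4 of them the library was high: Snap25 at 1.09 in tumour microglia library 22, and Syn2 at 1.56, Dlg2 at 2.23 and Stmn2 at 1.42 in undifferentiated macrophage library 8. For the other 4 it was low: Syt1 at -3.83 and Syp at -2.50 in normal microglia library 25, Nlgn1 at -0.35 in undifferentiated macrophage library 16 and Rbfox3 at -1.61 in differentiated macrophage library 20. Undifferentiated macrophage library 8 kept 20.01% of its own variation.

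In 9 cases the difference between populations itself differed between recipient strains at an adjusted p below 0.05 in limma. For tumour against normal microglia, WT minus Pep3 was 4.51 for Syn2, 4.22 for Gad2, 3.84 for Gabrb2, 4.66 for Dlg2, 4.95 for Nrxn3, 3.45 for Nlgn1, 4.44 for Stmn2 and 4.63 for Phyhipl. For differentiated macrophages against tumour microglia it was -4.99 for Nrxn3. Tumour microglia of Pep3 recipients came from experiment 3 and those of WT recipients from experiment 4, so strain and experiment cannot be told apart.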

How the results depend on the processing

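No paired analysis was possible because every library has a number of its own, shared with no other population. The labels' experiment numbers join populations in groups of 4 libraries, and not single libraries. Leaving out 1 library at a time, the number of the 25 genes called ranged from 1 to 13 for tumour against normal microglia, 1 to 12 and 2 to 10 for differentiated and undifferentiated macrophages against normal microglia, 17 to 22 and 16 to 23 for them against tumour microglia, and 0 to 0 between the macrophages. No called gene changed sign in these fits, and 15 and 14 genes were called in all of them against tumour microglia. Subtracting library medians gave 5 and 4 genes for differentiated and undifferentiated macrophages against normal microglia, an adjusted p below 0.1 gave 14 for the differentiated, and experiment 4 alone gave 4 for undifferentiated macrophages against tumour microglia. Without the 9 libraries that kept under 50% and without the covariates, an alternative chosen after seeing the data, 0 genes were called for tumour against normal microglia, and 7, 6, 17 and 17 in the other comparisons with microglia, in the order above. For these other comparisons the shares of all genes called are not given, so the counts cannot be set against changes over all genes. Dropping the covariates alone, or ordinary empirical Bayes, moved no count by over 1.5 times. Single calls were lost without the covariates: Syn2, Gad2, Gabrb2 and Nrxn3 in tumour against normal microglia. Nlgn1 in undifferentiated macrophages against normal microglia and Syt1 in differentiated macrophages against tumour microglia were lost too.

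Fits with few residual degrees of freedom called almost nothing. With only the libraries compared (3 degrees of freedom), limma called 1 gene for tumour against normal microglia and 0 in the other 4 comparisons with microglia, where 0 to 15 of the 25 genes had an unadjusted p below 0.05. In WT recipients alone it called 0 in these 5 comparisons (3 to 7 unadjusted), and in Pep3 recipients alone 1 for undifferentiated macrophages against normal microglia and 0 in the other 4 (4 to 7 unadjusted). Without the 9 libraries but with covariates (6 degrees of freedom) it called 0 in all 5 (1 to 9 unadjusted). Fewer samples and degrees of freedom are part of these settings. Shares of all genes in these fits are not given, so the counts cannot be set against all genes. Signs turned mostly in WT recipients alone, where none passed. For tumour against normal microglia the values were 2.15 for Syn2, 0.30 for Gad2, 0.99 for Gabrb2, 0.21 for Dlg2, 1.91 for Nrxn3, 0.74 for Nlgn1, 1.35 for Stmn2 and 0.43 for Phyhipl. For undifferentiated macrophages against normal microglia they were -1.11 for Grin1 and -1.56 for Nefm. Against tumour microglia they were -1.05 for Snap25, -0.82 for Syt1, -0.30 for Syp, -0.25 for Grin1 and -0.69 for Gria1 in differentiated macrophages, and -0.0047 for Snap25, -2.81 for Syt1, -2.37 for Syp, -1.49 for Grin1, -1.03 for Grin2b and -1.05 for Camk2b in undifferentiated macrophages. In Pep3 recipients alone, Nefh was -0.11 in differentiated and Nlgn1 -0.060 in undifferentiated macrophages against normal microglia, and Syp was -0.37 and -0.11 against tumour microglia. Without the 9 libraries, Nefm was -0.40 in undifferentiated macrophages against normal microglia, and without covariates too Nrxn3 was 0.0037 in tumour against normal microglia. The cause was not tested. Depth is unknown, so the precision of low transcripts cannot be judged.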

Other observations

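The row Mtap2, an older symbol of Map2, the dendritic microtubule protein, was not counted among the 25 genes. It differed by -1.90 ± 0.31 between tumour and normal microglia (adjusted p = 0.00053, limma), and by 2.60 ± 0.32 in differentiated and 2.69 ± 0.34 in undifferentiated macrophages against tumour microglia. Among astrocyte genes, the glutamate transporters Slc1a2 and Slc1a3 moved in opposite directions: Slc1a2 rose by 2.72 ± 0.39 and Slc1a3 fell by 1.63 ± 0.37 in differentiated macrophages against tumour microglia. All 5 oligodendrocyte precursor genes rose in both macrophage populations against tumour microglia, and the proteoglycan genes Vcan and Ptprz1 had the largest differences for their error, 2.13 ± 0.33 and 2.39 ± 0.41 in differentiated macrophages. In tumour against normal microglia these fell, by 1.71 ± 0.32 for Vcan and 1.99 ± 0.39 for Ptprz1.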
